A study of Mus musculus with 2 samples.

Results

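The 10 genes of the NF-κB pathway and of its best known inducer described here were measured in cultured mouse myeloid-derived suppressor cells (MDSCs). They are the subunit genes Nfkb1, Nfkb2, Rel and Relb, the inhibitor genes Nfkbia and Nfkbie, and Nfkbiz of the same family. The others are Tnfaip3, Tnfaip2 and the cytokine gene Tnf. The 10 genes were taken by symbol from the 32285 genes of the count tables, by membership of the pathway. Earlier results of these data were known when they were chosen. All 10 had UMIs in both libraries. Both groups were marrow cells of 10-week-old C57BL/6 females, cultured for 4 days with 50 ng/mL each of GM-CSF and IL-6, so they model marrow differentiation in a dish and not a tumour. The first group (DAB) also received dabrafenib, a BRAF inhibitor, at 1.5 µM, and the second (DMSO) received the vehicle. Each group was 1 single-cell library made with the 10x Genomics 5′ v2 chemistry, and the sources used here do not say how many mice each one pooled. With 1 library per condition there was no replicate and no test: a difference between the libraries cannot be told apart from one between cultures or library preparations, and every interval given covers counting error only, at 95%.

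NF-κB proteins act as dimers of Rel family subunits, which inhibitor proteins of the IκB family hold in the cytoplasm until receptors such as those for TNF or bacterial products lead to the destruction of the inhibitor. Released dimers bind κB sites and switch on inflammatory genes, among them the genes of their own inhibitors and of the deubiquitinase A20, which closes the circuit. In neutrophils, monocytes and dendritic cells the same circuit controls survival, cytokine release and maturation.

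The DMSO library kept 9032 cells and 91769918 UMIs, with a median of 7449.5 UMIs per cell, and the DAB library kept 10476 cells, 139656292 UMIs and a median of 9368. Of the barcodes, 152 occurred in both files. Clusters were lettered by size, and 24 of 27 held at least 100 cells of each library. Fixed markers named 8 classes of that size: granulocyte progenitor, intermediate granulocyte, mature PMN (polymorphonuclear cells), chemokine-high, mature monocyte, activated dendritic cell, macrophage and B cell, while 62.2% of DMSO and 58.8% of DAB cells stayed unnamed. Itgam, the gene of the general myeloid marker CD11b, was detected in 45.0% (DMSO) and 49.1% (DAB) of all cells thinned to 1500 UMIs each. In the B cell class it was detected in 2.26% and 1.68%. S100a8, an abundant granulocyte gene, had a UMI in 22.6% and 34.6% of thinned B cell class cells. The part of free RNA in the droplets in these shares was not tested, and no class is known to lack the 10 genes.

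Because several of the 10 genes are known targets of the factor they regulate, the windows before their transcription starts are printed with their κB matches (RefSeq, GRCm38.p6). Of the 10 genes, 7 had a promoter entry: Nfkbia, Nfkbie, Tnfaip3, Tnfaip2, Nfkb2, Rel and Tnf. These 7 genes had 10 windows, since Tnfaip3 had 2 and Nfkb2 had 3. The κB consensus was searched on both strands in the 250 bases before a start, with overlapping matches allowed. It occurred in at least 1 window of 5 of the 7 genes, Nfkbia, Nfkbie, Tnfaip3, Nfkb2 and Rel, though not in the second window of Tnfaip3. It occurred in 3.90% of all 32851 windows of that length, a share of windows and not of genes. A match is a stretch of letters, not a measured binding site, and the genes were chosen as pathway members. The stretches below run 5′ to 3′ on the strand of the gene, end at or next to the start, and carry the matches in capitals. The window of Tnf held no match and is shown for comparison.
Nfkbia, chr12:55492648-55492767, minus strand: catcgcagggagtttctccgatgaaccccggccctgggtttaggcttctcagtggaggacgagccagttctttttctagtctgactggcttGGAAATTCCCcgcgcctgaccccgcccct
Nfkbie, chr17:45555580-45555699, plus strand: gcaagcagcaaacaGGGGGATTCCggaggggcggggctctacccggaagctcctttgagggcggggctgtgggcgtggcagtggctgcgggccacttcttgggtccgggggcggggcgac
Rel, chr11:23770971-23771089, minus strand: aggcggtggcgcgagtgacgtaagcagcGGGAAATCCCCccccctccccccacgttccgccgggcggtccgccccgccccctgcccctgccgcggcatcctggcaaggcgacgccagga
Tnf, chr17:35202008-35202127, minus strand: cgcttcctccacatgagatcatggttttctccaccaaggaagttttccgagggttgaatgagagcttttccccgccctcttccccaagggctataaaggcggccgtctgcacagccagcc
For Tnfaip3 and Nfkb2 the first window overlapped an annotated exon, so only the surroundings of its match nearest to the start are given.
Tnfaip3, chr10:19015411-19015432, minus strand: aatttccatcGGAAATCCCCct
Nfkb2, chr19:46304716-46304736, plus strand: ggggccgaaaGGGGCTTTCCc
The Tnfaip3 match lay 12 to 3 bases before the start and the Nfkb2 match 11 to 2 bases before it. Among the printed windows the match lay 29 to 20 bases before the start of Nfkbia, 106 to 97 before that of Nfkbie and, as 2 overlapping matches, between 92 and 82 before that of Rel.

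Over all cells, levels were compared as CPM, a gene's UMIs per 1000000 UMIs of the library, and a gene was counted as higher or lower when its log2 ratio of DAB over DMSO reached 0.5 in size and its mean over both libraries was at least 10 CPM. Of the 10 genes, 1 was higher in DAB (Nfkbie) and 1 was lower (Tnfaip3). Among all 7665 genes tested, 11.0% were higher and 11.0% were lower, so these counts were near the background. The median log2 ratio of the 10 genes was -0.17, beside 0.00 over all genes tested, and 4 of the 10 were above 0. The small median joins genes that moved apart: the log2 ratios ran from -0.90 for Tnfaip3 to 0.51 for Nfkbie.

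**Figure D1:**
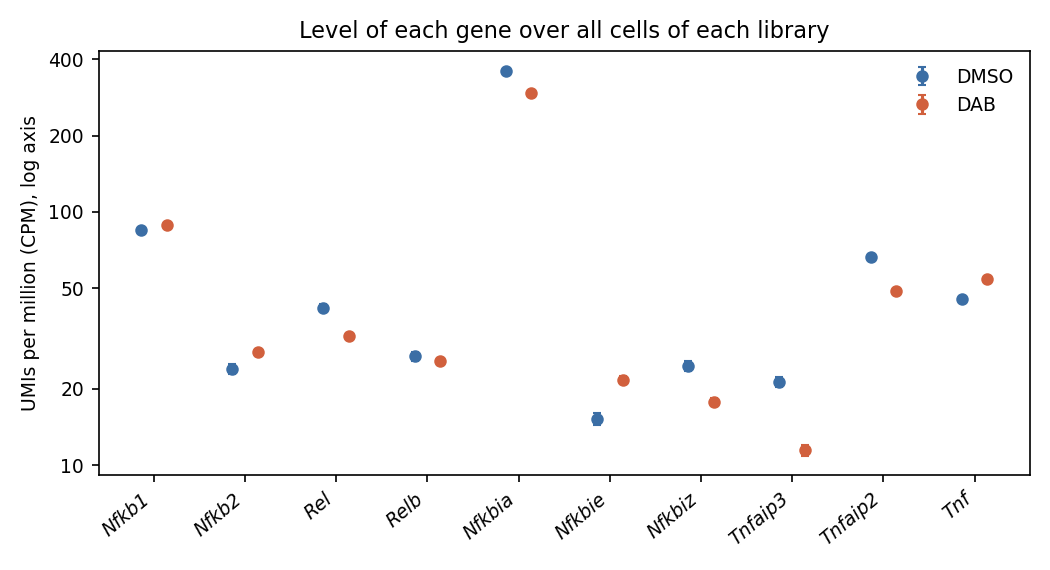
Level of each of the 10 genes over all cells of the DMSO and the DAB library, in CPM on a log axis, with points for the level and bars for the 95% counting interval. Nfkbie is the gene farthest above its DMSO level (15.2 against 21.7 CPM) and Tnfaip3 the one farthest below it (21.3 against 11.4 CPM).

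Among the subunit genes, Nfkb1 and Nfkb2 encode precursors that are processed to p50 and p52, and Rel and Relb encode c-Rel and RelB, which carry a transactivation domain. Nfkb1 (chromosome 3, 135584655 to 135691547, GRCm38) stood at 84.8 CPM in DMSO and 88.9 CPM in DAB, a log2 ratio of 0.07 (0.03 to 0.11). Nfkb2 (chromosome 19, 46304320 to 46312385) stood at 23.98 and 27.92 CPM, a log2 ratio of 0.22 (0.14 to 0.30). Rel (chromosome 11, 23736847 to 23770970) stood at 41.9 and 32.3 CPM, a log2 ratio of -0.37 (-0.44 to -0.31). Relb (chromosome 7, 19606217 to 19629438) had nearly the same level in both libraries, 26.9 and 25.7 CPM, and its interval reached 0 (-0.14 to 0.01). None of the 4 subunit genes passed the 0.5 limit over all cells as summed. With every cell given the same weight, Nfkb2 was past it at 0.73, Relb was at 0.32 and Rel at -0.06. Rela, the gene of the p65 subunit, is not among the 10 and was looked up after its values were seen: it stood at 37.9 and 39.8 CPM.

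The activated dendritic cell class, named from Ccr7, Fscn1 and Ccl22, had the highest level of 3 subunit genes among the 24 clusters in both libraries. Its Relb level was 154 CPM in DMSO and 294 CPM in DAB, while the next cluster, the B cell class, had 47.8 and 56.4 CPM. Nfkb1 there stood at 282 and 284 CPM and Nfkb2 at 105 and 152 CPM. The class held 226 DMSO and 130 DAB cells and 4.46% and 1.64% of all UMIs, yet 25.6% of the Relb UMIs of the DMSO library and 18.7% of those of the DAB library came from it. Relb is needed for dendritic cell maturation, so its high level in a class named from activation markers is not independent of that name. The log2 ratio of Relb within the class was 0.93 (0.77 to 1.09), against the near-equal level over all cells. When each class, and each unnamed cluster, was given the same weight in both libraries, the log2 ratio of Relb over all cells was 0.26 in place of -0.06, that of Nfkb2 was 0.38 in place of 0.22 and that of Rel was -0.12 in place of -0.37. For these 3 genes the equal weights moved the ratio out of its counting interval. Over all cells, a shift in the share of a class and a change in RNA per cell cannot be told apart.

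Nfkb2 was also higher past the limit in 2 larger classes. In the mature PMN class, whose markers include Csf3r, its level was 51.4 CPM in DMSO and 110 CPM in DAB, a log2 ratio of 1.09 (0.78 to 1.41). In the chemokine-high class it was 17.6 and 40.1 CPM, a log2 ratio of 1.19 (0.86 to 1.53) that was 0.40 without alignment of the libraries. This class was named from Ccl3, Ccl4 and Cxcl2, which are NF-κB targets, so its levels of pathway genes are not independent of its name. Its 3 clusters were led by Gpnmb, Cxcl3 and Atp6v0d2, and they held 232, 273 and 187 DMSO cells and 676, 533 and 564 DAB cells, so the largest part of the DMSO cells lay in the second and the largest part of the DAB cells in the first, neither a majority. Relb in the mature PMN class stood at 29.3 and 56.8 CPM and Nfkb1 at 63.5 and 110 CPM, log2 ratios of 0.96 and 0.79, while Rel stood at 48.6 and 46.9 CPM. In these cells, where 21.8% of all genes were higher past the limit, Nfkb1, Nfkb2 and Relb were too, and the interval of Rel included 0. Without the cell filter the Nfkb1 ratio was 0.41, under the limit.

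The direction of Rel differed between other classes. The B cell class had the highest Rel level of any cluster in DMSO, 362 CPM, and 238 CPM in DAB, a log2 ratio of -0.61 (-0.86 to -0.36). The activated dendritic cell class was second in DMSO with 213 CPM and first in DAB with 297 CPM. The mature monocyte class, marked by MHC class II genes, had Rel levels of 50.2 and 32.9 CPM, again a log2 ratio of -0.61. In the macrophage class, marked by complement C1q genes, Rel was at 21.7 and 35.6 CPM from 40 and 75 UMIs, a log2 ratio of 0.71 (0.14 to 1.30). Over all cells the summed markers of this class stood at 81.8 CPM in DMSO and 17.4 CPM in DAB. The class itself held 1.84% and 1.41% of cells. Whether it held like cells in both libraries was not tested, which limits all ratios of this class.

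Nfkbia encodes IκBα, the inhibitor that is degraded and resynthesised fastest, and it was the most frequently detected of the 10 genes. It lies on chromosome 12, 55489410 to 55492647, on the minus strand. Over all cells it stood at 359 CPM in DMSO and 296 CPM in DAB, a log2 ratio of -0.28 (-0.30 to -0.26). Of cells thinned to 1500 UMIs, 37.7% of DMSO and 38.5% of DAB cells held a UMI, so the share of cells did not follow the level. The mature PMN class went the opposite way to the whole: 541 CPM in DMSO and 860 CPM in DAB, a log2 ratio of 0.67 (0.57 to 0.77), with a UMI in 46.2% and 61.9% of thinned cells, though the ratio was 0.42 without the cell filter. The largest cluster, A, led by Mmp12 and Slc7a2 and left unnamed, stood at 318 and 150 CPM, a log2 ratio of -1.09 (-1.16 to -1.02), the lowest among the 24 clusters. In the macrophage class Nfkbia stood at 205 and 126 CPM, a log2 ratio of -0.70. When every cell was given the same weight in place of its UMIs, the log2 ratio over all cells was 0.13. The mature PMN class, with a median of 2659 and 2909 UMIs per cell, was among the shallow ones.

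Nfkbie encodes IκBε, a slower inhibitor that prefers dimers with RelA and c-Rel. Its gene lies on chromosome 17, 45555703 to 45563169. Over all cells it stood at 15.2 CPM in DMSO and 21.7 CPM in DAB, a log2 ratio of 0.51 (0.42 to 0.60) that lay just past the limit and was 0.48 without the cell filter and without doublet removal. The share of thinned cells with a UMI was 2.48% in DMSO and 4.04% in DAB. Of the 10 genes, Nfkbie was the one most often higher across clusters, past the limit in 11 of the 22 clusters where it reached 10 CPM and 20 UMIs, and lower past it in 0, beside 16.2% and 15.5% of all gene by cluster values. The mature monocyte class stood at 21.3 and 39.4 CPM, a log2 ratio of 0.89 (0.66 to 1.12), and held 14.6% of Nfkbie UMIs in DMSO and 22.6% in DAB. The activated dendritic cell class stood at 29.3 and 60.0 CPM, a log2 ratio of 1.03 (0.67 to 1.4). The B cell class had the highest level in both libraries, 96.9 and 127 CPM, a difference within counting error (-0.02 to 0.82).

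Nfkbiz encodes IκBζ, a nuclear protein of the family that acts as a coactivator of late NF-κB targets. It lies on chromosome 16, 55811375 to 55838899, and stood at 24.6 CPM in DMSO and 17.8 CPM in DAB, a log2 ratio of -0.47 (-0.55 to -0.39). It was lower past the limit in 9 of 24 clusters (15.5% of all gene by cluster values) and higher in 0. The mature monocyte class stood at 24.7 and 12.0 CPM, a log2 ratio of -1.04 (-1.31 to -0.76), and the intermediate granulocyte class, marked by Camp and Ltf, at 39.3 and 24.1 CPM, a log2 ratio of -0.71. In the B cell class, where its DMSO level was the highest, it stood at 102 and 58.1 CPM. In the mature PMN class the levels were 40.5 and 42.0 CPM and in the chemokine-high class 26.6 and 27.4 CPM, with intervals that included 0. Within the mature monocyte class, then, 2 genes of the IκB family differed in opposite directions, Nfkbie above and Nfkbiz below its DMSO level.

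Tnfaip3 encodes A20, which removes ubiquitin chains from signalling proteins upstream of NF-κB and so ends the signal. The gene lies on chromosome 10, 19000910 to 19015657. Over all cells as summed it had the largest difference of the 10 genes, a log2 ratio of -0.90 (-0.996 to -0.804). Its level was 21.3 CPM in DMSO (20.4 to 22.3) and 11.4 CPM in DAB (10.9 to 12.0). The ratio was -0.78 with the same class weights in both libraries. It was -0.52 with every cell given the same weight, where Nfkb2 (0.73) and Nfkbie (0.72) were larger in size. The share of thinned cells with a UMI was 3.59% and 2.36%. Tnfaip3 was lower past the limit in 15 of 24 clusters (15.5% of all gene by cluster values), with the lowest log2 ratio, -1.77, in cluster N, led by Cstdc5 and Stfa1. The mature monocyte class stood at 24.2 and 7.26 CPM, a log2 ratio of -1.74 (-2.06 to -1.42), and in cluster A at 17.3 and 6.38 CPM. These low levels rest on few molecules per cell but on 357 UMIs in the mature monocyte class and 378 in cluster A over both libraries. Another 2 clusters went the other way: in the activated dendritic cell class Tnfaip3 stood at 45.4 and 65.7 CPM, a log2 ratio of 0.53 (0.21 to 0.85) that was under the limit in 5 of 8 alternatives, and in cluster I, a chemokine-high cluster, at 12.9 and 22.4 CPM, a log2 ratio of 0.80 (0.17 to 1.49). In cluster D, the larger mature PMN cluster, the levels were 31.5 and 31.5 CPM.

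**Figure D2:**
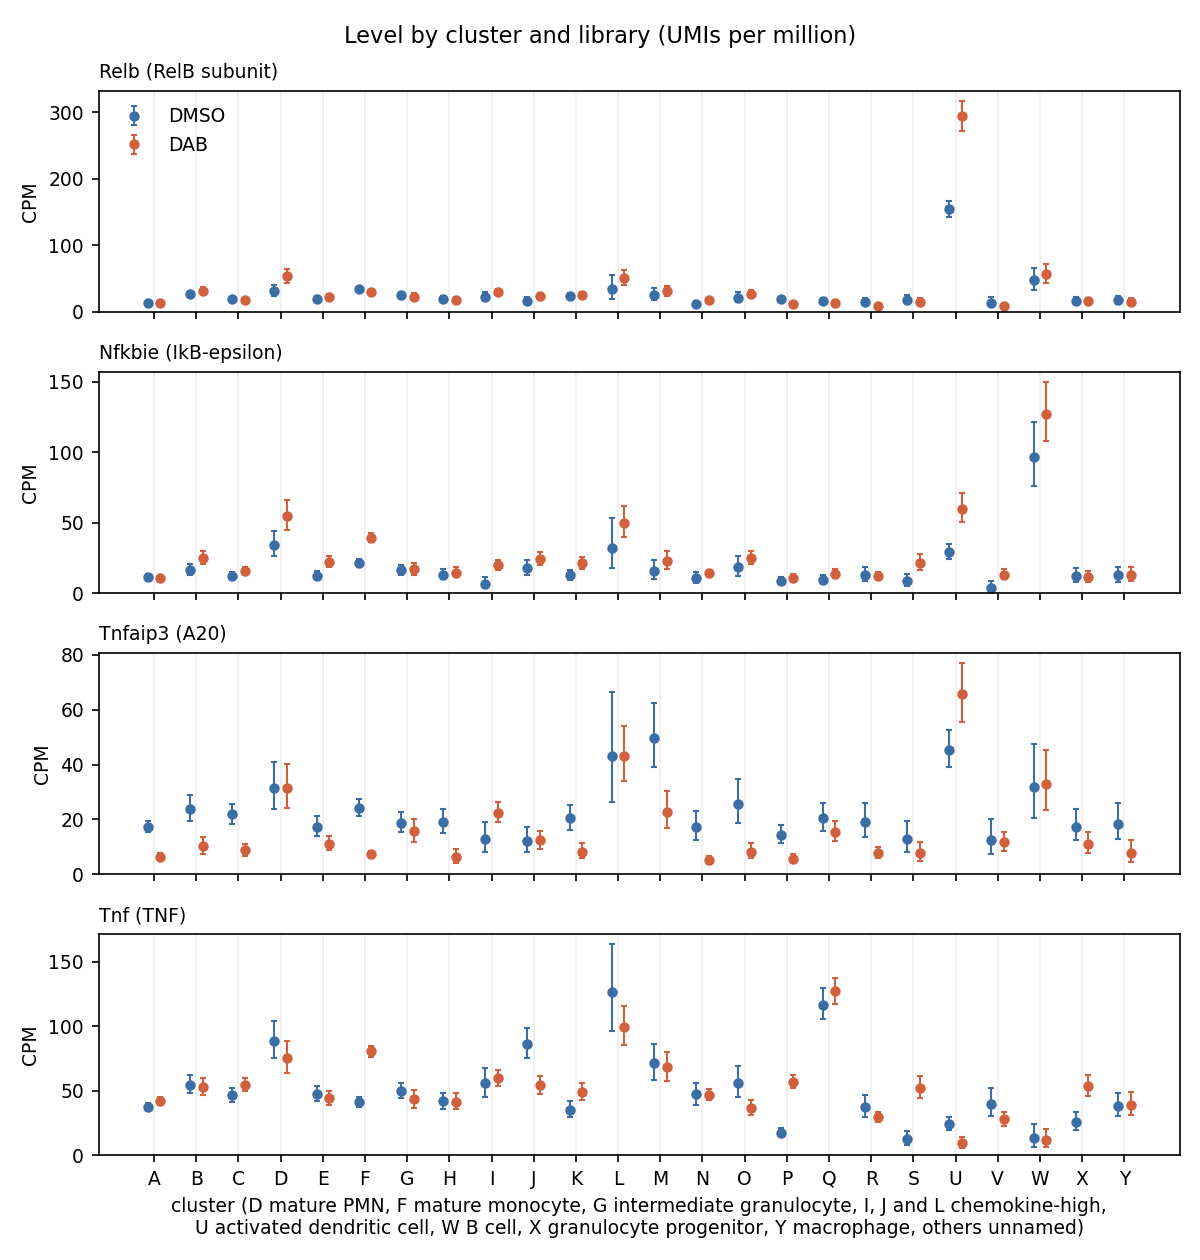
Levels of Relb, Nfkbie, Tnfaip3 and Tnf in 24 clusters, each with 100 or more cells per library, in CPM, with points for the 2 libraries and bars for the 95% counting interval. Relb peaks in the activated dendritic cell cluster U (154 and 294 CPM). Tnfaip3 lies lower in DAB past the limit of 0.5 in log2 ratio in 15 clusters, while Tnf is highest in clusters L and Q.

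Nfkbia and Nfkbiz are also known as genes that cells switch on during handling, so a list of 12 immediate early and heat shock genes was read beside them. Of its 9 genes tested over all cells, 0 were higher and 4 were lower (11.0% of all genes in each direction), the median log2 ratio was -0.46 and the summed level was 1188 CPM in DMSO and 962 CPM in DAB. Fos, an AP-1 subunit gene, stood at 38.4 and 7.66 CPM, and Atf3, a stress-induced repressor, at 57.7 and 23.9 CPM. Hspa1a, a heat shock gene below the 10 CPM limit, stood at 11.7 and 0.444 CPM. In the mature PMN class, where Nfkbia was higher in DAB, 4 of 9 genes of that list were lower (11.0% of all genes of the class) and 1 was higher (21.8%). In the mature monocyte class 4 of 8 were lower (17.5%) and 0 higher (14.5%). The part of handling in the ratios of Nfkbia, Nfkbiz and Tnfaip3 was not tested.

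Tnfaip2, a gene induced by TNF that encodes a protein of membrane protrusions, lies on chromosome 12, 111442469 to 111455018. It stood at 66.3 CPM in DMSO and 48.5 CPM in DAB, a log2 ratio of -0.45 (-0.50 to -0.40), with a UMI in 10.3% and 10.2% of thinned cells. With every cell given the same weight the log2 ratio was 0.01. Its mature monocyte level was 82.0 CPM in DMSO and 17.6 CPM in DAB, a log2 ratio of -2.22 (-2.42 to -2.03), the largest difference of any of the 10 genes in a named class. The class held 12.9% of Tnfaip2 UMIs in DMSO and 4.50% in DAB, though it held 10.4% and 12.4% of all UMIs. The share of its thinned cells with a UMI was 12.5% and 2.64%. In cluster S, led by Tspan18 and Asgr2, the levels were 59.2 and 19.6 CPM, a log2 ratio of -1.60. The highest levels were in cluster L, 181 and 195 CPM, and cluster D, 127 and 143 CPM, where the intervals included 0. In the B cell class Tnfaip2 was nearly absent, with 6 and 5 UMIs and a UMI in 0.752% and 0.559% of thinned cells.

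Tnf encodes the cytokine that both induces NF-κB and is induced by it. It lies on chromosome 17, 35199381 to 35202007, on the minus strand. Over all cells it stood at 45.3 CPM in DMSO (43.9 to 46.7) and 54.3 CPM in DAB (53.1 to 55.5), a log2 ratio of 0.26 (0.21 to 0.32). After thinning, the share of cells with a Tnf UMI was 6.68% (6.16 to 7.23) for DMSO and 7.44% (6.94 to 7.97) for DAB, and without thinning it was 24.5% and 32.6%. The intervals of the thinned shares overlapped. Tnf was uneven between cells: 68.5% of its UMIs in DMSO and 62.7% in DAB lay in the 10% of cells with the most. Before thinning, 26 and 67 cells had at least 10 UMIs, and the highest cells had 64 and 78. These counts are not free of depth, with a median of 7449.5 UMIs per cell in DMSO and 9368 in DAB. Of the 26 and 67 cells, 4 and 26 lay in the mature monocyte class, with medians of 19632 and 29895.

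The direction of Tnf depended on the class. In the mature monocyte class it stood at 41.1 CPM in DMSO and 80.7 CPM in DAB, a log2 ratio of 0.97 (0.81 to 1.14). A Tnf UMI was found in 5.71% and 9.67% of its thinned cells, shares whose intervals overlapped. This class supplied 9.45% of Tnf UMIs in DMSO and 18.5% in DAB. In the granulocyte progenitor class, marked by Elane and Mpo, Tnf stood at 25.6 and 53.6 CPM from 56 and 164 UMIs, a log2 ratio of 1.06 (0.62 to 1.53), but the shares of thinned cells, 4.73% and 4.11%, did not follow, and 5 of 148 DAB cells had at least 10 Tnf UMIs against 0 of 182 DMSO cells. These UMIs per cell were counted before thinning, at a median depth of 10978 UMIs per cell in DMSO and 21772 in DAB. The counts of such cells are therefore not free of depth. With every cell given the same weight the log2 ratio was 0.26 in this class. Another 2 clusters, both unnamed, had larger ratios: cluster S went from 12.3 to 52.3 CPM and cluster P, led by H2-Q10 and Myl10, from 17.5 to 57.1 CPM, log2 ratios of 2.09 (1.44 to 2.81) and 1.70 (1.39 to 2.02). Cluster S held only 0.529% of the Tnf UMIs of the DMSO library. The alternatives in processing, equal weight per cell included, were run for classes and not for these 2 clusters.

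In the 2 classes with the highest Tnf level in DMSO there was no such excess in DAB. The chemokine-high class stood at 78.4 and 63.0 CPM, a log2 ratio of -0.32 (-0.49 to -0.14), and the mature PMN class at 94.1 and 104 CPM with an interval that included 0. A single DAB cell held 78 of the 316 Tnf UMIs of the mature PMN class, and without it, a check chosen after seeing the data, the DAB level was 78.2 CPM and the log2 ratio -0.27. Cluster L had the highest level in DMSO, 127 CPM, and cluster Q, led by Spp1 and Ccl4, the highest in DAB, 127 CPM. In cluster J, a chemokine-high cluster, Tnf stood at 86.2 and 54.2 CPM, a log2 ratio of -0.67 (-0.94 to -0.41). In the activated dendritic cell class it stood at 24.4 and 9.20 CPM from 100 and 21 UMIs, but 86.0% of the DMSO UMIs came from 10% of its cells, and the direction turned under 4 of the alternatives in processing, from a log2 ratio of -1.41 to values between 0.31 and 0.75. Its share of thinned cells with a UMI, 2.24% and 0.781%, was below the 3.01% and 1.12% of the B cell class (median 4035 and 4980.5 UMIs, against 17882 and 15632), so no direction was read there.

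**Figure D3:**
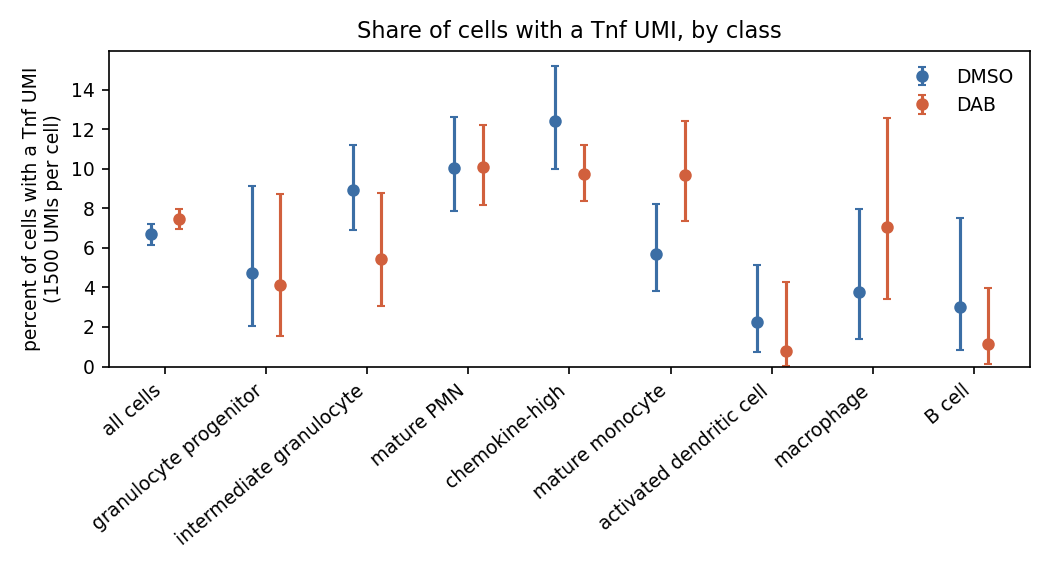
Percent of cells with a Tnf UMI after thinning to 1500 UMIs per cell, over all cells and in the 8 named classes, with points for the DMSO and DAB libraries and bars for the exact binomial 95% interval. The mature monocyte shares are 5.71% and 9.67%, with overlapping intervals, and the activated dendritic cell and B cell classes have the lowest shares in DAB.

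Cells with a Tnf UMI were compared with cells without one in the same library, after thinning. Nfkbia was found in 43.9% of the 574 DMSO cells with Tnf and in 37.3% of the 8022 without, and in 45.1% of the 758 DAB cells with Tnf and 37.9% of the 9426 without. Tnfaip3 was found in 3.83% of DAB cells with Tnf and 2.24% without, and in 4.36% and 3.54% of DMSO cells. Nfkb2 was found in 3.14% and 4.11% of DMSO cells and in 8.84% and 6.24% of DAB cells. For Tnfaip3 and Nfkb2 the DMSO shares overlapped in their intervals. Tnfaip2 was found in 13.41% and 10.03% of DMSO cells and in 13.46% and 9.909% of DAB cells. Like those of Nfkbia, its intervals did not overlap in either library. The intervals of Nfkb1, Rel, Relb, Nfkbie and Nfkbiz overlapped in both libraries. Of these genes, Nfkb1 in DAB (12.14% against 13.41%) and Relb in DMSO had lower shares with Tnf. Within the mature PMN class the Nfkbia shares were 60.0% with Tnf and 44.7% without in DMSO, and 70.8% and 60.9% in DAB. Other classes had the reverse order in a library: in the chemokine-high class in DMSO they were 36.2% and 41.8% (59.6% and 49.2% in DAB). In the mature monocyte class in DAB they were 18.2% and 22.0% (29.6% and 26.7% in DMSO). The intervals with and without Tnf overlapped in each of these class pairs, the mature PMN class included, so no direction was read. These cells share their library and their cluster mix, so the shares are descriptions.

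Counted by class, members past the limit were set beside the same count over all genes of that class, with the percentages of all genes in brackets. In the mature PMN class 5 of 10 were higher (21.8%) and 0 lower (11.0%): Nfkbia, Nfkbie, Nfkb1, Nfkb2 and Relb, of which Nfkbie, Nfkb2 and Relb stayed past the limit in all 9 alternatives that gave the class. In the chemokine-high class 3 were higher (10.5%), Nfkbie, Nfkb2 and Relb, and 0 lower (10.5%), and only Nfkbie stayed past the limit in all 9, since Relb was 0.37 with a mean over cells and Nfkb2 0.40 without alignment. In the activated dendritic cell class 4 were higher (10.8%), Nfkbie, Tnfaip3, Nfkb2 and Relb, and 2 lower (17.8%), Tnfaip2 and Tnf. Of these 6, Nfkbie and Relb stayed past the limit in all 8 alternatives, while Nfkb2 went down to 0.20 and Tnfaip3 to 0.31, Tnfaip2 came to between -0.29 and -0.18 in 4 of them, and Tnf turned. Nfkbie was thus the gene past the limit in each of these 3 classes under all alternatives run. In the mature monocyte class 2 were higher (14.5%), Nfkbie and Tnf, and 4 lower (17.5%), Nfkbiz, Tnfaip3, Tnfaip2 and Rel, and all 6 stayed past it in all 9 alternatives.

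The other 4 classes had fewer cells or fewer genes past the limit. The granulocyte progenitor class had 2 higher (21.9%), Nfkb2 and Tnf, and 4 lower (16.0%), Nfkbia, Tnfaip3, Tnfaip2 and Rel, of which only Tnfaip2 stayed past the limit in all 8 alternatives. In the macrophage class 2 were higher (15.4%), Nfkb1 and Rel, and 2 lower (17.5%), Nfkbia and Tnfaip3, the last at -0.48 without doublet removal. The intermediate granulocyte class had 0 higher (27.9%) and 1 lower (13.3%), Nfkbiz. In the B cell class, where Tnfaip2 was too low to count, 1 of 9 was higher (27.2%), Nfkb1, and 2 were lower (16.9%), Nfkbiz and Rel, the last at -0.41 with a mean over cells. The median log2 ratio of the counted genes ran from -0.24 in the mature monocyte class to 0.40 in the mature PMN class, beside medians over all genes of -0.01 and 0.12.

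**Figure D4:**
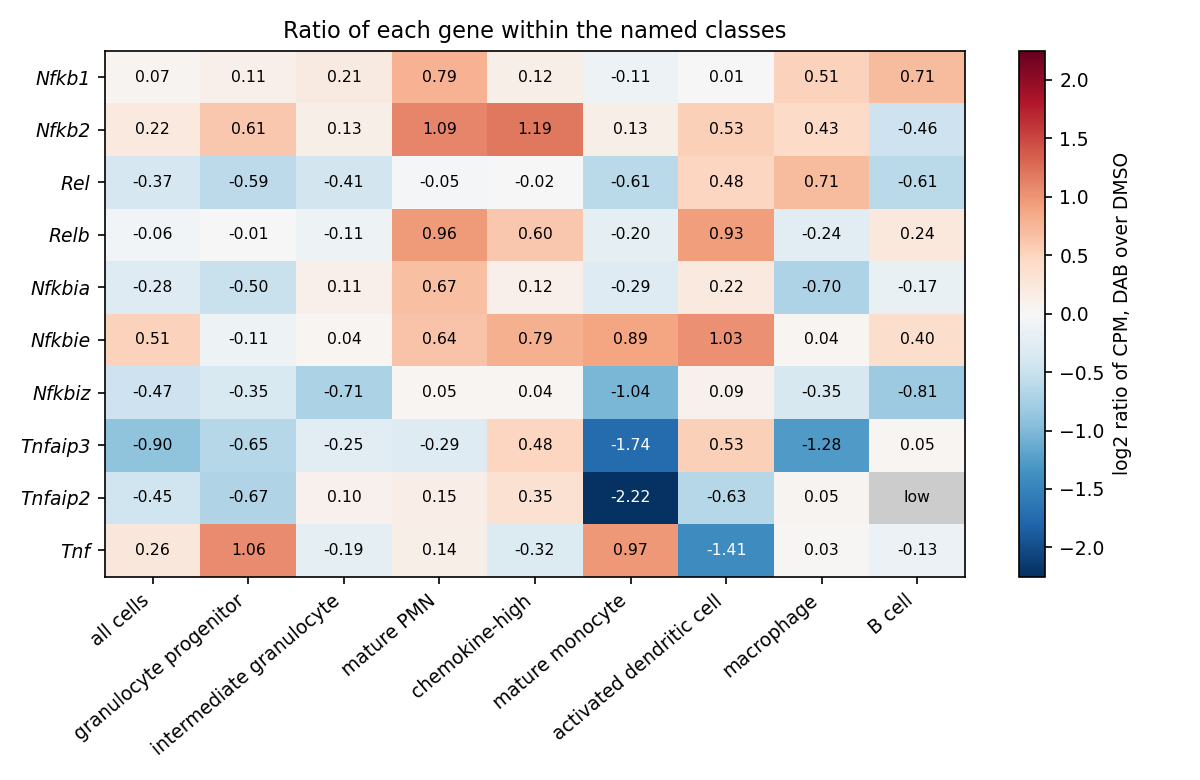
Log2 ratio of CPM, DAB over DMSO, of each of the 10 genes over all cells and in the 8 named classes, as colour and as printed value, with "low" where the mean was under 10 CPM. The mature PMN column holds 5 values of at least 0.5, and the mature monocyte column holds both -2.22 (Tnfaip2) and 0.97 (Tnf).

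Over the 24 clusters, 16.2% of all gene by cluster values were higher past the limit and 15.5% were lower. Against this, Nfkbie was higher in 11 of 22 and lower in 0, Tnfaip3 was lower in 15 clusters and higher in 2, Nfkbiz lower in 9 and higher in 0, and Tnfaip2 lower in 8 of 23 and higher in 1. Nfkb2 was higher in 10 and lower in 0, and Nfkb1 higher in 4 and lower in 0. Rel was higher in 3 and lower in 6, Nfkbia higher in 2 and lower in 5, and Relb higher in 5 and lower in 3. Tnf was higher in 4 and lower in 4, over the widest range of the 10 genes. The lower ones include the activated dendritic cell cluster, the low end of that range, where the direction turned in 4 alternatives. Clusters of 1 library are not replicates, so these counts describe how general a difference was within the same 2 libraries.

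**Figure D5:**
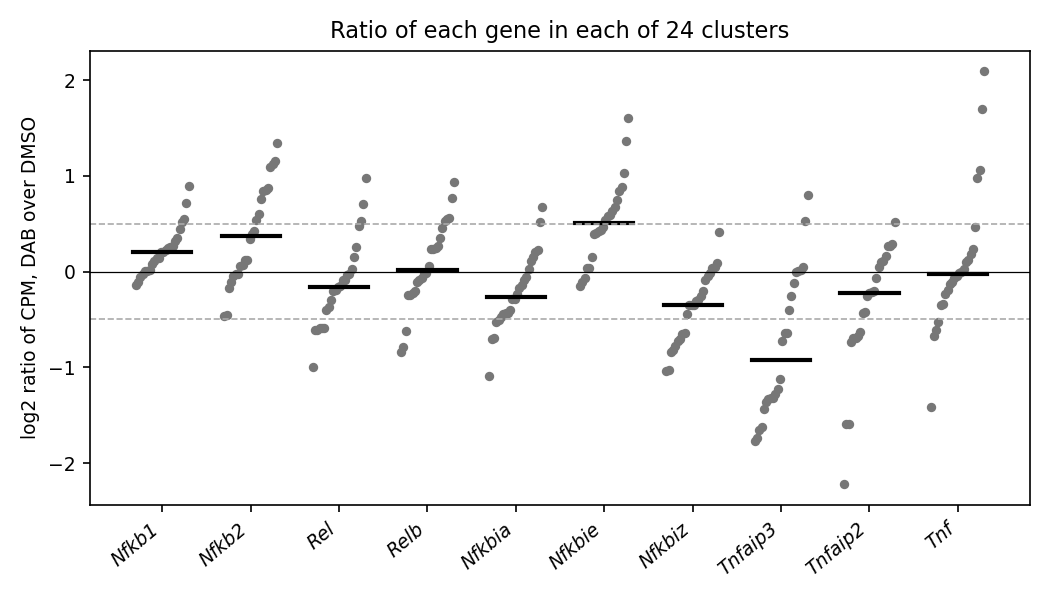
Log2 ratio of CPM, DAB over DMSO, of each of the 10 genes in the clusters where it reached 10 CPM and 20 UMIs, each point 1 of up to 24 clusters, black bars the median and dashed lines the limit of 0.5 in either direction. Medians run from -0.92 for Tnfaip3 to 0.51 for Nfkbie, and Tnf spans from -1.41 to 2.09. The low end of Tnf is the activated dendritic cell cluster, where its direction turned under some alternatives in processing.

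The rest of the pathway was described by 8 lists of genes grouped by function, with 11.0% of all genes as the background in each direction over all cells. Of 10 genes tested in the list of IκB kinases and their upstream kinases, 0 passed the limit, with a median log2 ratio of -0.06, and of the 5 other Rel and IκB family genes 0 passed either. Of 18 TNF and Toll-like receptor and adaptor genes, 0 were higher and 4 lower, with a median of -0.15. In the mature monocyte class, 9 of 17 genes of this list were lower and 1 higher, beside 17.5% and 14.5% of all genes of that class.

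Among partners of A20 and decay factors of cytokine transcripts, the genes past the limit were lower in DAB. Of 8 genes of ubiquitin editing, 0 were higher and 2 lower. Tnip3, which encodes an A20-binding protein, stood at 39.2 CPM in DMSO and 18.6 CPM in DAB, a log2 ratio of -1.08 (-1.15 to -1.01). Of 6 decay factor genes, 0 were higher and 2 lower. Zfp36 encodes tristetraprolin, which binds and destroys Tnf mRNA, and it stood at 159 and 62.9 CPM, a log2 ratio of -1.34 (-1.38 to -1.30). In the mature monocyte class, where Tnf was higher, Zfp36 stood at 186 and 64.6 CPM. In the mature PMN class, where the interval of the Tnf ratio included 0, Zfp36 stood at 386 and 156 CPM. Any link between the levels of Zfp36 and Tnf was not tested. The list of 11 TNF superfamily ligands and shedding genes had 1 higher and 2 lower of 6 tested.

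Of 17 tested NF-κB target genes, 4 were higher and 4 lower, with a median of 0.02. Cxcl2, a neutrophil chemokine gene, stood at 140 and 557 CPM, a log2 ratio of 1.99 (1.96 to 2.02). Nos2, which encodes inducible nitric oxide synthase, stood at 110 and 10.8 CPM, a log2 ratio of -3.35 (-3.43 to -3.27). Gadd45b, a stress and survival gene, stood at 65.5 and 26.3 CPM and Ccl5, a T cell chemokine gene, at 49.1 and 21.2 CPM. Over all cells, targets of the same pathway thus lay far apart in both directions, but the cell mix differed too. Cxcl2 is a marker of the chemokine-high class, which held 5.32% of all UMIs in DMSO and 9.26% in DAB. Ccl5 is a leading gene of the activated dendritic cell class, which held 4.46% and 1.64%. The part of such shifts in these ratios was not tested. In the mature PMN class 10 of 16 target genes were higher (21.8% of all genes of the class) and 2 lower (11.0%), with a median of 0.86 beside 0.12 over all genes. The intermediate granulocyte class, where 0 of the 10 members were higher, had 8 of 12 target genes higher (27.9%) and 1 lower (13.3%). Granulocyte progenitors had 7 of 14 higher (21.9%) and 2 lower (16.0%). The macrophage class had 3 of 15 higher (15.4%) and 7 lower (17.5%).

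For each of the 10 genes, the genes with the most similar pattern were sought over 16 profiles, the 8 named classes in the 2 libraries, among 7847 genes with a mean of at least 10 CPM. These profiles share cells, library and depth, and Pearson's r on log2(CPM + 1) is a description. Rel was most like Ccr7 (r = 0.96), Cd83 (0.96) and Cyth1 (0.94), Relb was most like Traf1 (0.94), and Nfkb1 like Serpinb6b (0.92) and Ccr7 (0.91). Ccr7 is among the markers that named the activated dendritic cell class, so its likeness to Rel and Nfkb1 is not independent of the classes. Cd83 and Traf1 are on the list of NF-κB target genes. Nfkb2 was most like Hivep1 (0.92), Nfkbie like Arid5a (0.91), Nfkbiz like Ccnl1 (0.91), Tnfaip3 like Zfc3h1 (0.91) and Nfkbia like Rnf115 (0.89). Tnfaip2 was most like Lamp1 (0.95), Gab2 (0.94) and Fcgr3 (0.93), and Tnf like Tnfrsf23 (0.92). Within the 10, Nfkb1 and Relb were the most alike (0.90), followed by Nfkb2 and Relb (0.89), while Rel and Tnf were the least (-0.75).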

How the data were processed

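The deposited values are raw counts of unique molecular identifiers (UMIs), which the authors made with Cell Ranger 7.0.0 against mm10. Barcodes above a mitochondrial share of 10% were dropped (55 DMSO, 89 DAB), 0 lay over 4 median absolute deviations, and the highest scores against simulated doublets were removed (768 and 1066). Pearson residuals of 3000 variable genes, without the 10 genes and the pathway lists, with cell cycle and mitochondrial scores regressed out, gave 40 components, which were aligned by mutual nearest neighbours and clustered with Leiden (resolution 0.9, leidenalg 0.10.2, scipy 1.17.1). A class name needed at least 3 markers raised. No class of immature monocytes was named, and the chemokine-high class lost its granulocyte name here because its leading genes go against it. UMIs were summed per library and class as CPM. Ratios carry exact conditional binomial, levels exact Poisson and shares exact binomial (Clopper-Pearson) intervals. Steps were tested on simulated data. The members, lists and naming rule were chosen with earlier results of these data known. Named genes were the 10 members, pathway genes of at least 10 CPM and an absolute log2 ratio of 1 or more, and the 3 genes most like each member, of which the leading ones are given. Nfkb2 and Tnfaip2 overlap genes on the opposite strand, and the sources used here do not say whether counting used strand. Gene positions are from the GENCODE annotation of GRCm38, which need not be the release counted. Basophil or mast cells and eosinophils had under 100 cells in a library.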

Additional observations from a re-analysis of the deposited data

How the results depend on the processing

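The alternatives were no cell filter, no doublet removal, a mean over cells, median-of-ratios scaling, class-standardized levels, other minimum levels, no alignment, Leiden at 0.5 and 1.5, clustering with the members, no cell cycle regression and other thinning. With no cell filter, with no doublet removal and at a minimum of 50 CPM (3 members tested), 0 members were higher over all cells, and with a mean over cells 2 were (Nfkbie and Nfkb2); at 50 CPM 0 were lower. The median of the 10 members was 0.14 with a mean over cells and 0.02 class-standardized, against -0.17. The median of the NF-κB target genes was 0.38 with a mean over cells. The Tnf share was 24.5% and 32.6% without thinning and 11.8% and 12.8% at 3000 UMIs, in DMSO and DAB. In 2 classes a ratio turned: Tnfaip3 in granulocyte progenitors was 0.093 with a mean over cells, and Tnf in activated dendritic cells was 0.75 without doublet removal, 0.31 without alignment, 0.68 at resolution 1.5 and 0.64 without cell cycle regression. Of the 34 class ratios past the limit, 19 stayed past it in all alternatives that gave the class, among them all 6 of the mature monocyte class but 0 of 2 lower ones in activated dendritic cells. The cause was not tested. Without 1 DAB cell, an alternative chosen after seeing the data, Tnf in mature PMN was -0.27 in place of 0.14. All 66 recomputed class medians stayed within the spread of the members. That spread reached from -1.74 to 0.89 in the mature monocyte class, so a median could hardly leave it and nothing is concluded from this. The granulocyte progenitor class was not named without alignment, and activated dendritic cells (no cell filter) and macrophages (4 settings) fell under 100 cells. No paired analysis was possible because each condition is 1 library. Depth limits Tnfaip3, Nfkbie and Relb in small clusters.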
